A study of Homo sapiens with 12 samples.

Results

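Eph receptors and ephrins were followed across SW1990 and CFPAC-1 cells, 2 established human pancreatic adenocarcinoma lines that had been separated with the GCTM-5 antibody. The genes are the 10 rows of the deposited expression table that carry the symbols *EPHA1*, *EPHA2*, *EPHA4*, *EPHB2*, *EPHB3*, *EPHB4*, *EPHB6*, *EFNA1*, *EFNB1* and *EFNB2*, out of 23346 genes in all. They comprise 7 receptors and 3 ligands. All 10 were present in the table and all 10 passed the filter on low values.

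Eph receptors form the largest family of receptor tyrosine kinases in vertebrates, and their ligands, the ephrins, are themselves held on the cell surface, so that signalling passes between touching cells and runs in both directions. Ephrin-A ligands are attached by a lipid anchor and bind mainly EphA receptors, whereas ephrin-B ligands cross the membrane and bind mainly EphB receptors, with *EPHA4* as a receptor for ligands of either class. The system is known for sorting cells into separate territories, for positioning cells along the intestinal crypt, and for tuning adhesion and movement in epithelial tumours, pancreatic carcinoma among them.

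RNA was sequenced from 4 groups with 3 samples each. These were GCTM-5 positive and GCTM-5 negative SW1990 cells and GCTM-5 positive and GCTM-5 negative CFPAC-1 cells, with GCTM-5 being a mouse monoclonal antibody against a large glycoprotein complex at the cell surface. None of the groups is described as having received a drug or a genetic change, and every sample went through the same staining and sorting. The sort kept the brightest cells and the unstained cells of each culture, so cells of intermediate staining were not represented. The samples came from repeated sorts of each line according to the methods of the study, but neither these nor the labels say whether the 3 samples of a group were separate cultures, and p-values then measure only the spread between these samples, which may be technical. The 12 libraries held between 9969697 and 26159330 reads, with a median of 19434083, and the lowest total belonged to positive CFPAC-1 replicate 3. Values are the authors' RPKM, that is reads scaled for the length of the gene and for the size of the library. The fewest reads behind any member in any sample were 28, for *EPHB6* in a negative SW1990 sample.

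Promoter sequences of 4 members are shown. *EPHA1* and *EPHA4* had the highest and the lowest log2 fold change of the members in SW1990, *EFNA1* was lower in positive CFPAC-1 cells without overlap, and *EFNB2*, whose change was small, is shown because its window holds the motif marked here. They are the 250 bases before the start site as RefSeq gives it on GRCh38.p14, read on the strand of the gene from 5′ to 3′. All 10 members were found in the RefSeq table, and each sequence had exactly 1 match on GRCh37, the build of the expression data, from which the coordinates are taken. Capitals mark an E-box, the letters CACCTG on either strand, which repressors of epithelial genes such as ZEB1 can bind. The windows are chr7:143105950-143106199 for *EPHA1*, chr13:107188011-107188260 for *EFNB2* and chr2:222438923-222439172 for *EPHA4*, all on the minus strand, and chr1:155100102-155100351 on the plus strand for *EFNA1*.
EPHA1: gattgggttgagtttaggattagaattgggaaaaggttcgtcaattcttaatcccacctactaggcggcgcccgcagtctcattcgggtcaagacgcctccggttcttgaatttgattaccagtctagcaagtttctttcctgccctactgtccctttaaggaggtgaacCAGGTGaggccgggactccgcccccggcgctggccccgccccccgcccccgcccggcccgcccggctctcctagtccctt
EFNB2: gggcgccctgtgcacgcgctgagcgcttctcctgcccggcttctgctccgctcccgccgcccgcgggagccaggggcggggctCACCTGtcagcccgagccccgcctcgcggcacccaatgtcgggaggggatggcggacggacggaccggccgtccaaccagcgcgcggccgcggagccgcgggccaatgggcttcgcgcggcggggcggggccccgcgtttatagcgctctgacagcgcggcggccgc
EPHA4: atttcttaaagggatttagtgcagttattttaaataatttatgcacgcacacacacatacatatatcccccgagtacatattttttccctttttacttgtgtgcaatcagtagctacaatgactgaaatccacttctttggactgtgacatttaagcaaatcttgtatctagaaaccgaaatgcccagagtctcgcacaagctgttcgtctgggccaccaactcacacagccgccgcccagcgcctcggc
EFNA1: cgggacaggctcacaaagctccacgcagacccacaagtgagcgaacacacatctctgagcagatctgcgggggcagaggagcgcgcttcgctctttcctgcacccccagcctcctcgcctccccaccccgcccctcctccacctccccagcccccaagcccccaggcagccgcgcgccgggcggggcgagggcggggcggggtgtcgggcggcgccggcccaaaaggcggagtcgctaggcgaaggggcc

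The E-box lay 80 to 75 bases before the start site of *EPHA1*, where it reads CAGGTG, and 167 to 162 bases before that of *EFNB2*. Another member, *EPHB2*, held it 62 to 57 bases before its start, and the windows of the other 7 members did not contain these letters. Among these, the window of *EPHB6*, chr7:142560264-142560513, lies inside the gene as GENCODE gives it, chr7:142552823-142568847 on the plus strand, and not before that start. Of 35116 RefSeq promoter windows of the same length, 17.5% held the motif. The palindrome AACCGGTT, a motif of Grainyhead-like factors, was in 0.117% of all windows and the AP-1 motif TGACTCA, searched on both strands, was in 4.2%, and neither was in the window of any member. None of the 3 motifs contains another, and a match of letters is a description of the sequence and not evidence of binding. The window of *EPHA4* had the lowest GC content of the 10 at 43.2% and that of *EPHB2* the highest at 84.8%, beside a median of 58.0% over all windows. In the GENCODE annotation the window of *EPHA4* also overlaps an exon of a long non-coding RNA on the opposite strand, ENSG00000272944.

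Between GCTM-5 positive and negative cells, 7 of the 10 members were called as changed in SW1990 and 4 in CFPAC-1. In SW1990, 6 of the 10 were higher in positive cells (*EPHA1*, *EPHA2*, *EPHB2*, *EPHB3*, *EPHB6* and *EFNB2*), 1 was lower (*EPHA4*) and 3 were not called. Over all 16236 genes tested in SW1990, 11.3% were higher and 16.9% lower. In CFPAC-1, 2 members were higher in positive cells (*EPHA1* and *EPHB6*), 2 were lower (*EFNA1* and *EFNB1*) and 6 were not called, beside 22.3% higher and 14.2% lower among all genes. The median log2 fold change of the 10 members was 0.36 in SW1990 and 0.01 in CFPAC-1, and that of all genes was -0.04 and 0.05. The comparison of the lines rests on a test of the difference between the changes, given for each gene below, in which 6 members had a higher change in SW1990 and 1 a lower change, against 9.16% and 17.8% of all genes.

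Calls are from limma on the log2 of RPKM plus 0.1, fitted across all genes with 4 group means, where calling a gene took a p-value under 0.05 after Benjamini-Hochberg adjustment. Fold changes on this scale understate the change of genes with low RPKM, so ratios of mean RPKM are given beside some of them. With 3 samples against 3, an exact 2-sided permutation test of a single gene cannot go below 0.1. By the plain criterion that the samples of the positive and negative groups did not overlap, 7 members were higher and 1 lower in positive SW1990 cells, where 17.9% and 25.4% of all genes met it. In CFPAC-1, 4 members were higher and 1 lower by this criterion, beside 28.1% and 20.4% of all genes. Under the thresholds of the study, a change over 2-fold with a p-value under 0.01 that was taken here as unadjusted, *EPHA1* and *EPHB6* were higher and *EPHA4* was lower in positive SW1990 cells. These thresholds were met upward by 4.59% and downward by 7.48% of all genes in SW1990. In CFPAC-1, on the log2 of RPKM plus 0.1, they were met by *EFNB1* alone, which was lower. Over all genes in CFPAC-1 they were met by 5.65% upward and 4.13% downward. *EPHA1* fell just short of 2-fold in CFPAC-1 on this scale, at a log2 fold change of 0.9963. Its ratio of mean RPKM was 2.03, with an unadjusted p-value of 0.000187 (limma).

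**Figure D1:**
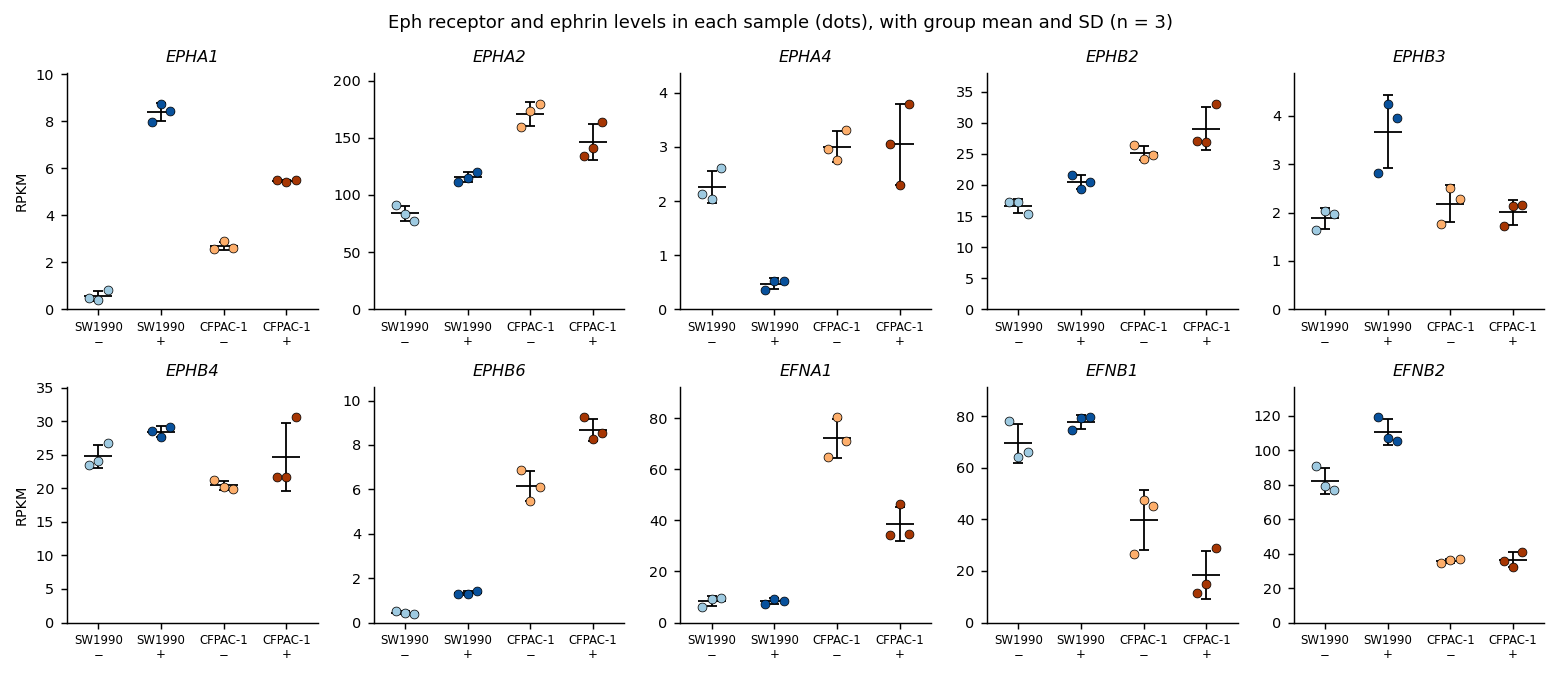
RPKM (vertical axes, linear, each starting at 0) of the 10 Eph receptor and ephrin genes in the negative (-) and positive (+) cells of SW1990 and CFPAC-1, with a dot per sample and the mean and SD of the 3 samples of a group. *EPHA1* lies between 0.409 and 0.807 RPKM in negative SW1990 cells and between 7.99 and 8.74 in positive ones, *EPHA4* goes the other way in SW1990, and *EFNA1* is lower in positive CFPAC-1 cells.

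Markers of epithelial and mesenchymal cells moved with the sort as well. All 5 epithelial markers (*EPCAM*, *KRT8*, *KRT18*, *KRT19* and *CDH1*) were higher in positive SW1990 cells, where they summed to between 4014 and 4562 RPKM against 1357 to 1628 in negative cells. In CFPAC-1, 2 of the 5 were higher, with sums of 6400 to 7691 RPKM in positive and 5222 to 6002 in negative cells. The 5 mesenchymal markers (*VIM*, *CDH2*, *ZEB1*, *FN1* and *SPARC*) were all lower in positive SW1990 cells, at 201 to 372 RPKM in sum against 1289 to 1451. In positive CFPAC-1 cells 4 of 5 were lower, with sums of 420 to 589 RPKM against 551 to 752, which overlap. These sums are mostly *VIM*, whose CFPAC-1 samples overlapped, at 406 to 574 RPKM in positive and 526 to 717 in negative cells. Proliferation markers (*MKI67*, *TOP2A*, *CCNB1* and *CDK1*) summed to 255 to 403 RPKM in positive and 171 to 207 in negative CFPAC-1 cells, where 3 of the 4 were higher, and to 252 to 284 RPKM when positive and 203 to 261 when negative in SW1990, where none was called. Of the 5 fibroblast markers 3 could be fitted, all lower in positive SW1990 cells, with sums of 3.90 to 4.86 against 12.6 to 22.6 RPKM, and none called in CFPAC-1, where the sums were 1.26 to 2.39 RPKM. In negative SW1990 cells *LUM* was at 7.31 to 17.6 RPKM, *COL1A1* at 3.37 to 3.85 and *PDGFRB* at 1.47 to 1.98. In positive SW1990 cells they were at 2.00 to 3.12, 1.72 to 2.23 and 0.0206 to 0.0541 RPKM. Of the fibroblast markers not fitted, *COL1A2* had at most 5 reads in any sample. *DCN* had 1 read in 1 sample and none in the other 11. Among the leukocyte markers *PTPRC* and *CD3E* had at most 3 reads in any sample, while *CD14* ranged over 8.61 to 9.57 RPKM in the negative and 2.60 to 4.31 RPKM in the positive CFPAC-1 samples, and was lower in positive cells of both lines. Of 3 endothelial markers, *CDH5* was at 14.2 to 17.7 RPKM in negative SW1990 cells, 1.16 to 1.63 in positive ones and at most 1 read in CFPAC-1. *PECAM1* was at 0.481 to 0.889 RPKM in negative and 0.232 to 0.490 in positive SW1990 cells, with overlap, and was called in neither line. *VWF* was at most 0.256 RPKM in any sample and was not fitted. The part of these differences in the Eph and ephrin values was not tested. In bulk RNA, fewer cells of a type and less RNA per cell cannot be told apart.

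*EPHA1*, the first Eph receptor to be cloned and a gene of epithelial tissues, was higher in positive cells of both lines. In negative SW1990 cells the 3 samples gave 0.492, 0.409 and 0.807 RPKM, and in positive SW1990 cells 7.99, 8.74 and 8.43 RPKM. The groups lay far apart, resting on 32 to 48 reads in the negative and 499 to 521 in the positive samples, and mean RPKM was 14.7-fold higher in positive cells. In CFPAC-1 the negative samples gave 2.55, 2.90 and 2.63 RPKM and the positive samples 5.49, 5.401 and 5.49 RPKM, a ratio of means of 2.03, again without overlap. The log2 fold change was 3.71 ± 0.19 (SE) in SW1990 with an adjusted p-value of 1.58e-07 and 1.00 ± 0.19 in CFPAC-1 with an adjusted p-value of 0.00174 (limma, n = 3 per group). The change in SW1990 exceeded that in CFPAC-1 by 2.71 ± 0.26 on the log2 scale, with an adjusted p-value of 3.1e-05, and by 1.78 when 1 RPKM was added in place of 0.1. Of the members, *EPHA1* had the highest log2 fold change in either line, although in CFPAC-1 the fall of *EFNB1* was larger in size, at -1.17. The gene spans chr7:143087382-143105949 on the minus strand of GRCh37 and overlaps *ZYX* and the antisense gene *EPHA1-AS1* on the other strand, and whether counting used strand is not given in the sources used here.

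*EPHA2*, the receptor of this family that is most prominent in carcinoma cells, had the highest mean RPKM of the members in each of the 4 groups, although in SW1990 its samples overlapped those of *EFNB2*. The negative SW1990 samples gave 90.8, 83.5 and 77.4 RPKM and the positive ones 112, 115 and 119.95 RPKM, with all positive samples above all negative ones. This is a rise of 0.46 ± 0.10 in log2, or 1.38-fold, with an adjusted p-value of 0.00313. In CFPAC-1 the negative samples gave 159, 174 and 179 RPKM and the positive samples 134, 141 and 164 RPKM, so the groups overlapped. The log2 fold change of -0.23 ± 0.10 was not called, with an adjusted p-value of 0.0837, but it was called at -0.31 without positive CFPAC-1 replicate 3 (adjusted p-value 0.0169), at -0.33 after centring each sample on its median (adjusted p-value 0.0272) and at -0.30 with voom (adjusted p-value 0.0291). The changes in the lines differed by 0.69 ± 0.13, with an adjusted p-value of 0.00289.

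*EPHA4*, which binds ephrins of both classes, was the only member lower in positive SW1990 cells. Its values were 2.12, 2.04 and 2.60 RPKM in negative and 0.357, 0.529 and 0.525 RPKM in positive SW1990 cells, on 277 to 302 and 44 to 59 reads. Every positive sample was thus below every negative one, the mean being 4.80-fold lower. *EPHA4* fell by 2.05 ± 0.21 in log2, with an adjusted p-value of 1.66e-05, and its log2 fold change was -1.145 with 1 RPKM added. In CFPAC-1 the negative samples gave 2.95, 2.75 and 3.31 RPKM and the positive samples 3.06, 2.30 and 3.79 RPKM, a log2 difference of -0.0033 ± 0.21 that was not called. The positive CFPAC-1 samples span those of the negative group on both sides. The difference between the changes was -2.05 ± 0.30, with an adjusted p-value of 0.000419.

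Among the EphB receptors, *EPHB6*, whose kinase domain lacks catalytic activity, was higher in positive cells of both lines. It was scarce in SW1990, at 0.505, 0.446 and 0.392 RPKM in negative and 1.28, 1.30 and 1.42 RPKM in positive samples, on 28 to 42 and 89 to 102 reads. The means differed 2.97-fold and the log2 fold change was 1.39 ± 0.14, with an adjusted p-value of 1.85e-05, or 0.69 with 1 RPKM added. In CFPAC-1, where the gene was more abundant, the negative samples gave 6.86, 5.50 and 6.12 RPKM and the positive samples 9.25, 8.26 and 8.53 RPKM. The groups did not overlap in either line. The log2 fold change in CFPAC-1 was 0.49 ± 0.14 with an adjusted p-value of 0.0189, and the call was lost without negative replicate 2, negative replicate 3 or positive replicate 1, with adjusted p-values of 0.0845, 0.0578 and 0.0703, and under quantile normalization, with 0.0674. The change in SW1990 was higher by 0.90 ± 0.20 with an adjusted p-value of 0.00667, a call that was not made with 1 RPKM added, when the difference was 0.25 with an adjusted p-value of 0.219. *EPHB6* lies on chromosome 7 as *EPHA1* does, 518.5 kb away.

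*EPHB3*, known with *EPHB2* for its place in the intestinal crypt, was called in SW1990 and not in CFPAC-1. Negative SW1990 samples gave 1.64, 2.03 and 1.97 RPKM and positive ones 2.82, 4.24 and 3.95 RPKM, with no overlap and a ratio of means of 1.96. The log2 fold change was 0.92 ± 0.20, with an adjusted p-value of 0.00393. The CFPAC-1 samples gave 1.76, 2.50 and 2.28 RPKM in negative and 1.71, 2.13 and 2.16 RPKM in positive cells, with overlapping groups and a log2 difference of -0.11 ± 0.20. The difference between the changes was 1.03 ± 0.28, with an adjusted p-value of 0.0168.

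*EPHB2* and *EPHB4*, the latter best known as the receptor for ephrin-B2 on veins, were the more abundant EphB receptors and moved little. *EPHB2* gave 17.3, 17.3 and 15.4 RPKM in negative and 21.6, 19.3 and 20.4 RPKM in positive SW1990 cells, all positive samples being higher. Its log2 fold change of 0.30 ± 0.10 was at the edge of the threshold, with an adjusted p-value of 0.0398, and the call was lost in 8 of the 12 fits that left out a single sample, among them those without any 1 of the 3 negative SW1990 samples, positive SW1990 replicates 1 and 3, or any 1 of the 3 negative CFPAC-1 samples, with adjusted p-values up to 0.144. It was also lost under eBayes without a trend (0.0650) and with a replicate block (0.0649). In CFPAC-1 *EPHB2* gave 26.4, 24.2 and 24.8 RPKM in negative and 27.1, 27.0 and 33.0 RPKM in positive cells, a difference of 0.20 ± 0.10 that was not called although the groups did not overlap. *EPHB4* gave 23.5, 24.1 and 26.7 RPKM in negative and 28.6, 27.6 and 29.2 RPKM in positive SW1990 cells, and 21.2, 20.2 and 19.9 RPKM in negative and 21.7, 21.7 and 30.6 RPKM in positive CFPAC-1 cells. The positive samples of *EPHB4* were above the negative ones in each line, but the log2 differences of 0.20 ± 0.12 and 0.25 ± 0.12 were not called, with adjusted p-values of 0.252 and 0.125. Positive CFPAC-1 replicate 3, the shallowest library, was the highest of its group for *EPHB2* and *EPHB4*, and without it *EPHB4* was called as higher in positive SW1990 cells, with an adjusted p-value of 0.0389. The changes of the 2 genes were not called as differing between lines, at 0.09 ± 0.14 for *EPHB2* and -0.05 ± 0.17 for *EPHB4*. *EPHB4* overlaps *SLC12A9* on the opposite strand.

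The ligand *EFNA1*, which encodes ephrin-A1, a partner of EPHA2 and EPHA1, was lower in positive CFPAC-1 cells. Its values there were 64.9, 80.3 and 71.0 RPKM in negative and 34.4, 46.4 and 34.8 RPKM in positive samples, so that all positive samples were below all negative ones. The mean was 1.87-fold lower, and *EFNA1* fell by 0.91 ± 0.18 in log2 with an adjusted p-value of 0.00258. In SW1990 it was at 6.03, 9.41 and 9.60 RPKM in negative and 7.31, 9.41 and 8.40 RPKM in positive samples, with overlapping groups and a log2 difference of 0.03 ± 0.18. The change in SW1990 was higher by 0.94 ± 0.26, with an adjusted p-value of 0.0186 that became 0.0509 without negative CFPAC-1 replicate 2. *EFNA1* spans chr1:155100352-155107375 on the plus strand, 40.3 kb from *EFNA3* and 58.3 kb from *EFNA4*.

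*EFNB1*, which encodes a transmembrane ligand, was also lower in positive CFPAC-1 cells, with more spread. Negative samples gave 26.4, 47.4 and 45.4 RPKM and positive samples 11.4, 15.005 and 28.9 RPKM. The groups overlapped, since negative replicate 1 was below positive replicate 3. *EFNB1* fell by 1.17 ± 0.29 in log2, with an adjusted p-value of 0.00873, and the call was lost when only the CFPAC-1 groups were fitted, with an adjusted p-value of 0.0786. In SW1990 it gave 78.1, 64.1 and 66.1 RPKM in negative and 74.6, 79.2 and 79.6 RPKM in positive samples, a difference of 0.17 ± 0.29 that was not called. The difference between the changes of 1.34 ± 0.41 had an adjusted p-value of 0.0315, and it was lost in 8 of the 12 fits that left out a single sample, which were those without negative replicates 2 and 3 of either line, positive SW1990 replicates 2 and 3 and positive CFPAC-1 replicates 1 and 2, with adjusted p-values up to 0.0792, and under eBayes without a trend (0.0502).

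*EFNB2*, the ligand of EPHB4 and a marker of arteries, was higher in positive SW1990 cells. Its samples gave 91.1, 79.1 and 77.1 RPKM in negative and 119, 107 and 106 RPKM in positive SW1990 cells, with no overlap and a 1.34-fold difference in means. The log2 fold change was 0.43 ± 0.10, with an adjusted p-value of 0.00718. CFPAC-1 cells gave 34.4, 36.2 and 36.7 RPKM when negative and 36.0, 32.3 and 41.0 RPKM when positive, a difference of 0.02 ± 0.10 that was not called and turned to -0.08 after median centring. The difference between the lines of 0.41 ± 0.14 was just outside the threshold, with an adjusted p-value of 0.0529. It was called with 1 RPKM added (adjusted p-value 0.0485), after median centring (0.0134) or quantile normalization (0.0300), with voom on recovered reads (0.0172) and with a replicate block (0.0437). It was also called without negative SW1990 replicate 1 (0.0334) or positive CFPAC-1 replicate 3 (0.0125), at log2 differences of 0.40 to 0.55 over these settings.

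**Figure D2:**
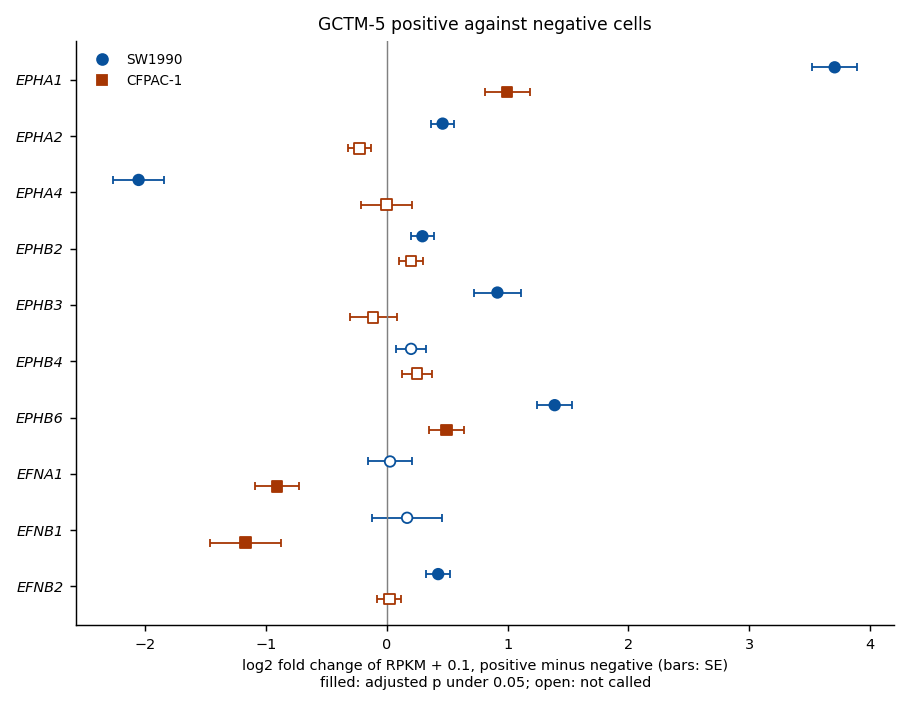
Log2 fold changes of RPKM + 0.1 between GCTM-5 positive and negative cells (horizontal axis, bars show the SE) for the 10 genes in SW1990 (circles) and CFPAC-1 (squares), filled where the adjusted p-value was under 0.05. *EPHA1* at 3.71 and *EPHA4* at -2.05 in SW1990 stand farthest from 0, and the called changes of *EFNA1* and *EFNB1* are those in CFPAC-1, at -0.91 and -1.17.

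Some of these differences depend on how the samples are scaled to one another. Centring each sample on its median moved the median difference between the changes over all genes from -0.15 to 0.00, and the median difference between negative cells of the lines from 0.19 to 0.01. Each called member kept its direction in the contrast where it was called under median centring, quantile normalization and voom on recovered reads. The members that changed sign under a scaling, *EPHB4* in the difference between the changes and *EFNB2* in CFPAC-1, were not called.

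The order of the members by RPKM, which is scaled for gene length, differed between the lines below *EPHA2*. In negative SW1990 cells the mean levels ran from *EPHA2* (83.9 RPKM) through *EFNB2* (82.4), *EFNB1* (69.5), *EPHB4* (24.8), *EPHB2* (16.6), *EFNA1* (8.35), *EPHA4* (2.26), *EPHB3* (1.88) and *EPHA1* (0.569) to *EPHB6* (0.448). The sample ranges of *EPHA2* and *EFNB2*, *EFNB2* and *EFNB1*, and *EPHA1* and *EPHB6* overlapped, so these neighbours did not differ beyond their spread. In positive SW1990 cells *EPHA1* stood next to *EFNA1*, at 8.38 and 8.37 RPKM with overlapping ranges, and *EPHA4* was last at 0.470 RPKM. *EPHA2* and *EFNB2* overlapped there too, at 115 and 111 RPKM. In negative CFPAC-1 cells *EPHA2* (171 RPKM) was followed by *EFNA1* (72.1), *EFNB1* (39.7) and *EFNB2* (35.8), of which the last 2 overlapped, then by *EPHB2* (25.1), *EPHB4* (20.4), *EPHB6* (6.16), *EPHA4* (3.01), *EPHA1* (2.69) and *EPHB3* (2.18), with overlap between *EPHA4* and *EPHA1*. In positive CFPAC-1 cells the neighbours from *EFNA1* (38.6 RPKM) through *EFNB2* (36.4), *EPHB2* (29.0) and *EPHB4* (24.7) to *EFNB1* (18.4) all overlapped. *EPHB3* had the lowest level in both CFPAC-1 groups.

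Summed over all 22 Eph and ephrin genes of the table, by class, the balance of receptors and ligands differed between the groups. The 9 EphA receptors summed to 87.7 ± 6.2 RPKM (SD, n = 3) in SW1990 when negative and 125 ± 4.6 when positive, and to 177 ± 11 and 156 ± 16 RPKM in CFPAC-1. *EPHA2* alone made up 63.7% and 64.5% of all receptor RPKM in negative and positive SW1990 cells and 73.7% and 66.4% in CFPAC-1. The 5 EphB receptors summed to 44.02 ± 0.66 and 54.1 ± 1.4 RPKM in SW1990, and to 53.9 ± 2.1 and 64.4 ± 8.6 RPKM in CFPAC-1. *EPHA1* made up 0.436% of receptor RPKM in SW1990 when negative and 4.68% when positive, and 1.16% and 2.49% in CFPAC-1. Ephrin-A ligands, 5 genes, summed to 28.8 ± 2.5 and 31.2 ± 3.4 RPKM in SW1990 but to 133 ± 8.7 and 76.4 ± 6.4 RPKM in CFPAC-1, where the 3 positive samples were all below the 3 negative ones. The 3 ephrin-B ligands summed to 154 ± 15 and 189 ± 4.5 RPKM in SW1990 and to 75.6 ± 13 and 55.0 ± 13 RPKM in CFPAC-1, and the CFPAC-1 groups overlapped. Most ephrin RPKM in SW1990 therefore came from *EFNB1* and *EFNB2*, with 37.8% and 45.0% of the total in negative cells, whereas *EFNA1* held 34.6% of it in negative CFPAC-1 cells.

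**Figure D3:**
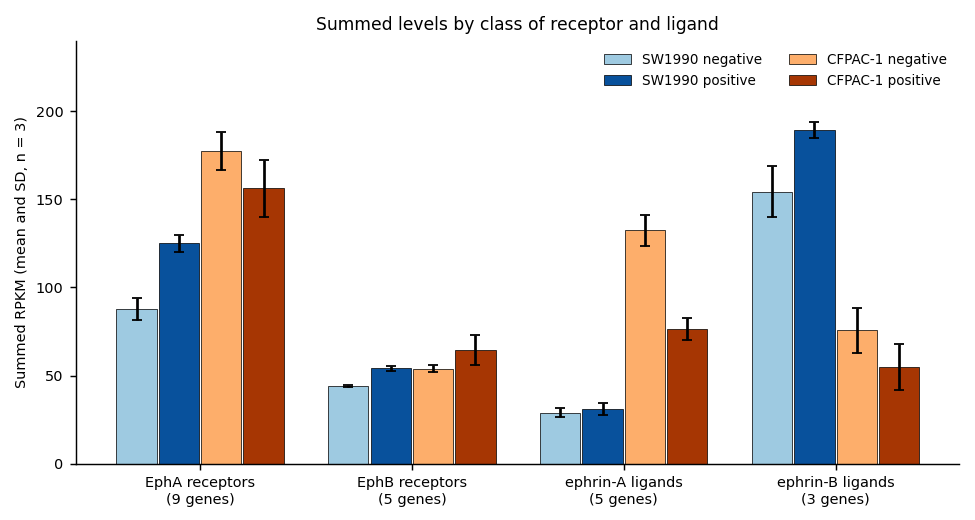
Summed RPKM (vertical axis, from 0) of the EphA receptors, EphB receptors, ephrin-A ligands and ephrin-B ligands in the 4 groups, with bars giving the mean and error bars the SD of 3 samples. Ephrin-A ligands sum to 133 RPKM in negative CFPAC-1 cells and 28.8 in negative SW1990 cells, and ephrin-B ligands to 75.6 and 154.

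The lines were also compared with each other. In negative cells, 2 members were higher in SW1990 (*EFNB1* and *EFNB2*) and 5 were lower (*EPHA1*, *EPHA2*, *EPHB2*, *EPHB6* and *EFNA1*). These were 20% and 50% of the members, where 40.7% of all genes were higher and 28.2% lower. The share of members called in either direction was near that of all genes, but the split by direction was not. In positive cells, 4 were higher in SW1990 (*EPHA1*, *EPHB3*, *EFNB1* and *EFNB2*) and 5 were lower (*EPHA2*, *EPHA4*, *EPHB2*, *EPHB6* and *EFNA1*), against 32.9% and 29.3% of all genes. These comparisons are of 1 line with another, and line and culture cannot be told apart.

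*EPHB6* had the largest line difference of the members, with a mean of 0.448 RPKM in SW1990 against 6.16 in CFPAC-1 among negative cells, a log2 difference of -3.51 ± 0.14 with an adjusted p-value of 1.36e-09. In positive cells it was -2.62 ± 0.14. Among negative cells *EFNA1* came next, at -3.12 ± 0.18, and it was at -2.18 ± 0.18 in positive cells. The adjusted p-values for *EFNA1* were 2.51e-08 and 8.02e-07. Among positive cells *EPHA4* came next after *EPHB6*. *EPHA1* was the member whose order turned round. It was lower in SW1990 among negative cells, by 2.10 ± 0.19 in log2 (adjusted p-value 9.03e-07), and higher in SW1990 among positive cells, by 0.61 ± 0.19 (adjusted p-value 0.0133). *EPHA4* was lower in positive SW1990 than positive CFPAC-1 cells, with a log2 difference of -2.45 ± 0.21 and an adjusted p-value of 9.95e-07, whereas among negative cells the difference of -0.40 ± 0.21 was not called, with an adjusted p-value of 0.106. The latter was called after median centring, at -0.59 with an adjusted p-value of 0.0188, and under quantile normalization (0.0130), voom (0.00598) and a fit of only the negative groups (0.0459). Both ephrin-B ligands were higher in SW1990. *EFNB2* differed by 1.20 ± 0.10 in negative and 1.60 ± 0.10 in positive cells, and *EFNB1* by 0.85 ± 0.29 and 2.19 ± 0.29. The call for *EFNB1* in negative cells, with an adjusted p-value of 0.021, was lost without negative SW1990 replicate 1 (0.0683), without negative CFPAC-1 replicate 1 (0.100) and after median centring (0.0637). *EPHA2* was lower in SW1990 by 1.02 ± 0.10 and 0.34 ± 0.10, and *EPHB2* by 0.59 ± 0.10 and 0.50 ± 0.10, in negative and positive cells. *EPHB3* was called in positive cells only, at 0.83 ± 0.20 with an adjusted p-value of 0.00282, beside -0.20 ± 0.20 in negative cells. *EPHB4* was called in neither comparison, at 0.27 ± 0.12 and 0.23 ± 0.12, and without positive CFPAC-1 replicate 3 it was called in both, with adjusted p-values of 0.00338 and 0.000938. Among negative cells it was also called when only those groups were fitted (0.0121). So it was with a replicate block that joined same-numbered samples of the lines (0.0452), which the labels do not link.

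**Figure D4:**
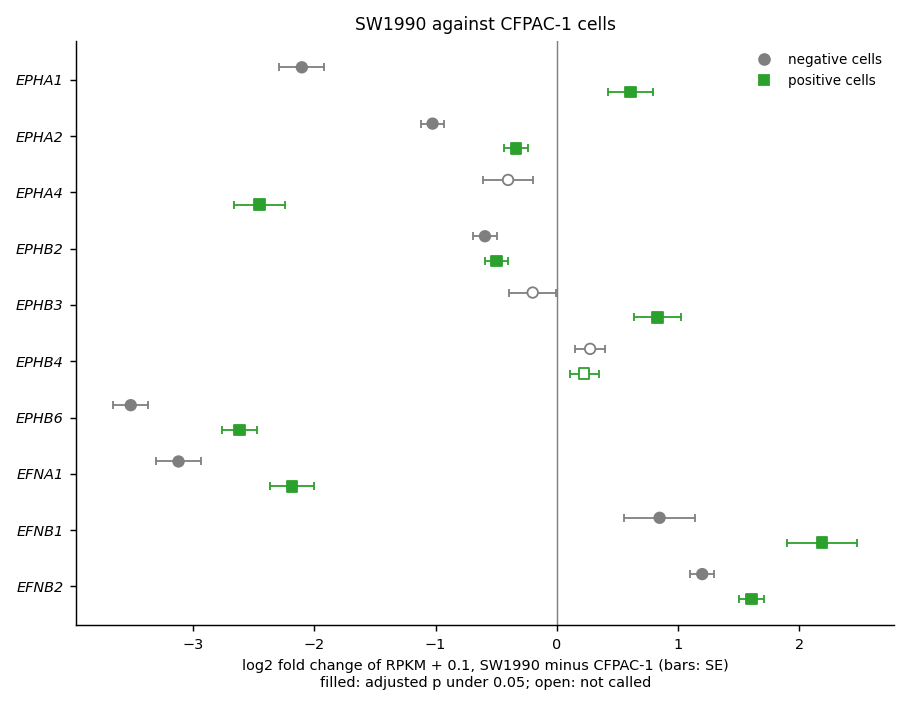
Log2 fold changes of RPKM + 0.1 between SW1990 and CFPAC-1 cells (horizontal axis, SW1990 minus CFPAC-1, bars show the SE) among GCTM-5 negative (circles) and positive cells (squares), filled where the adjusted p-value was under 0.05. *EPHA1* lies at -2.10 in negative and 0.61 in positive cells, and *EPHB6* and *EFNA1* lie below -2 in each.

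The other 12 genes of the family were mostly at low levels. *EPHA5* was listed at 0 in all samples and *EPHA8* had at most 2 reads in any, so 10 genes were fitted. In SW1990, 2 of the 10 were higher in positive cells and 5 lower, with a median log2 fold change of -0.40, beside 11.3% and 16.9% of all genes. In CFPAC-1, 1 was higher and 1 lower, with a median of 0.01, beside 22.3% and 14.2% of all genes. *EFNA3*, another ephrin-A ligand gene, close to *EFNA1*, was at 2.54, 2.56 and 3.17 RPKM in negative and 5.15, 5.95 and 6.68 RPKM in positive SW1990 cells, a log2 fold change of 1.08 ± 0.14 with an adjusted p-value of 9.86e-05. In CFPAC-1 *EFNA3* lay between 3.86 and 4.54 RPKM in all 6 samples, and the changes in the lines differed by 1.00 ± 0.19 (adjusted p-value 0.0027). *EPHA10*, a receptor without kinase activity, was at 0.170 to 0.220 RPKM in negative and 0.450 to 0.595 RPKM in positive SW1990 cells, with a log2 fold change of 1.09 ± 0.27. *EPHA3*, a receptor found in mesenchymal cells, was at 0.401 to 0.682 RPKM in negative SW1990 cells and at most 0.0850 in positive ones, a fall of 2.09 ± 0.31 with an adjusted p-value of 0.000323, and had at most 6 reads in any CFPAC-1 sample. Its mean RPKM was 10.3-fold lower in positive SW1990 cells, where samples held 0 to 11 reads. *EFNB3* went from 2.10, 2.48 and 2.92 RPKM to 0.657, 0.915 and 1.16 RPKM and *EFNA2* from 1.86, 1.20 and 1.40 RPKM to 0.433, 0.605 and 0.949 RPKM in SW1990, log2 changes of -1.38 ± 0.30 and -1.09 ± 0.34. The call for *EFNA2*, with an adjusted p-value of 0.03, was lost without negative SW1990 replicates 1 or 3 or positive replicates 1 or 2. Quantile normalization (0.105) and 0.01 RPKM added in place of 0.1 (0.123) lost it as well. *EPHA7* was at 0.0513 to 0.226 RPKM in negative and 0 to 0.0532 RPKM in positive SW1990 cells, on at most 35 reads. Its call, with an adjusted p-value of 0.0437, was lost without negative SW1990 replicates 2 or 3, positive SW1990 replicates 1 or 3, any negative CFPAC-1 sample or positive CFPAC-1 replicates 1 or 2. The *EPHA7* call was also lost with 1 RPKM added (0.134), quantile normalization (0.149) and a fit of only the SW1990 groups (0.0952). Median centring lost it too (0.060).

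*EFNA5*, a ligand bound by many EphA receptors and by EPHB2, was lower in positive cells of both lines. SW1990 cells held 7.17, 7.58 and 7.94 RPKM when negative and 5.43, 5.79 and 5.89 RPKM when positive. CFPAC-1 cells held 45.6, 47.7 and 48.4 RPKM when negative and 23.2, 24.1 and 23.5 RPKM when positive. The groups did not overlap in either line. *EFNA5* fell by 0.40 ± 0.08 in SW1990 and by 1.00 ± 0.08 in CFPAC-1, with adjusted p-values of 0.00208 and 1.32e-05, and the changes differed by 0.60 ± 0.11 (adjusted p-value 0.00193). With *EFNA1*, it accounted for most ephrin-A RPKM in CFPAC-1. *EPHA6* was at 0.304 to 0.466 RPKM in negative and 0.595 to 1.149 RPKM in positive CFPAC-1 cells, a call with an adjusted p-value of 0.0288 that was lost without negative replicates 1 or 3 or positive replicates 1 or 2, and it had at most 2 reads in SW1990. The *EPHA6* call was also lost with 0.01 RPKM added (0.220), median centring (0.0549) and a fit of only the CFPAC-1 groups (0.0606). *EPHB1* and *EFNA4* were called in neither line. *EFNA3* and *EFNA4* share reads with the readthrough gene *EFNA4-EFNA3*, so their values are uncertain where the counting could split such reads.

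**Figure D5:**
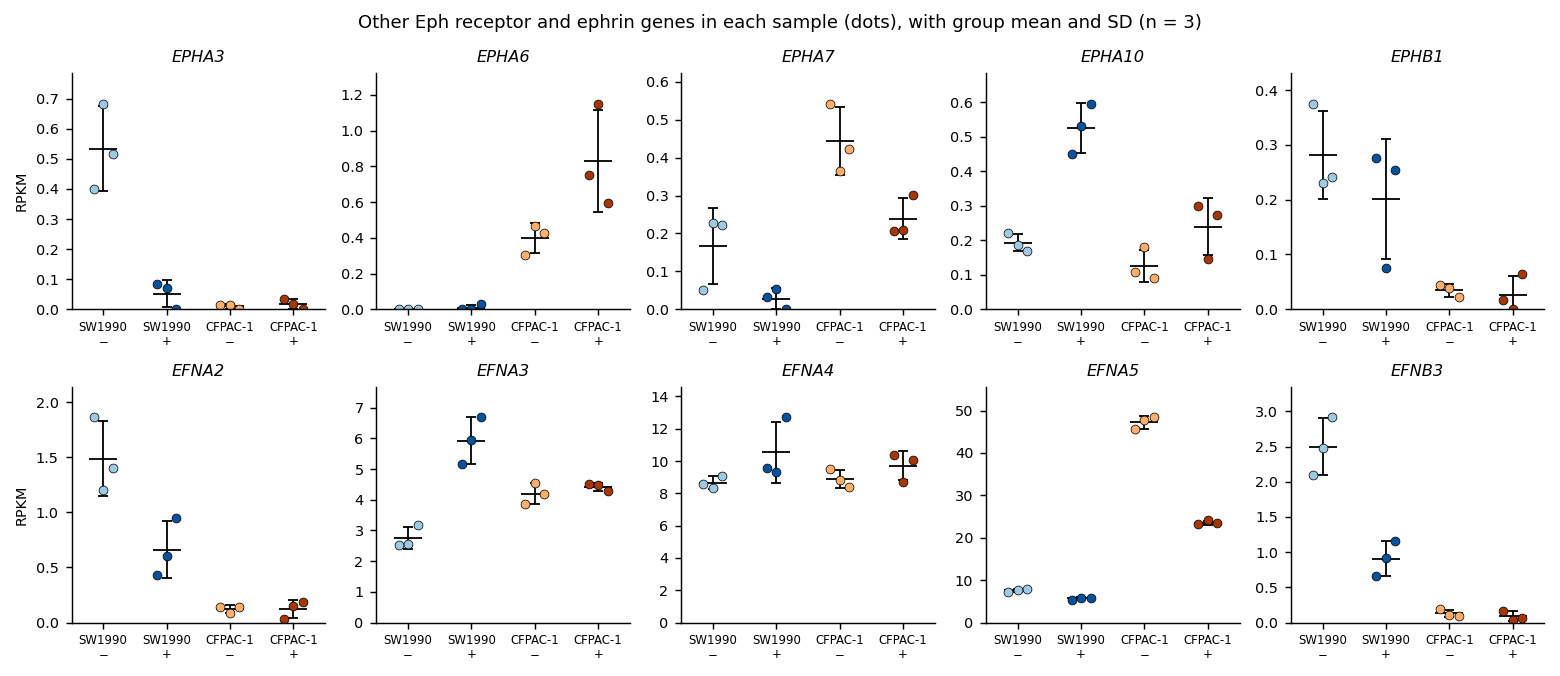
RPKM (vertical axes, linear, each starting at 0) of the 10 other Eph and ephrin genes that could be fitted, with a dot per sample and the mean and SD of the 3 samples of a group. *EFNA3* rises in positive SW1990 cells, *EPHA3*, *EFNB3* and *EFNA2* are highest in negative SW1990 cells, and *EFNA5* is highest in negative CFPAC-1 cells at 45.6 to 48.4 RPKM.

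Genes that carry the signal of Eph receptors and ephrins into the cell did not move as a body. Of 44 such genes 43 could be fitted, and in SW1990 6 were higher and 8 lower in positive cells, while in CFPAC-1 6 were higher and 7 lower. These counts are 14.0% and 18.6% of the list in SW1990, where 11.3% and 16.9% of all genes were higher and lower. In CFPAC-1 they are 14.0% and 16.3%, where the shares of all genes were 22.3% and 14.2%. The medians were -0.04 and -0.03. *RASA1*, a Ras GTPase-activating protein that binds EphB receptors, went in opposite directions. Negative SW1990 samples gave 23.2, 18.7 and 23.8 RPKM and positive ones 51.5, 46.2 and 53.1 RPKM. Negative CFPAC-1 samples gave 117, 124 and 131 RPKM and positive ones 55.5, 64.4 and 65.5 RPKM. Its log2 fold changes were 1.20 ± 0.11 and -1.001 ± 0.11, with no overlap in either line. *ARHGEF5*, a guanine nucleotide exchange factor, was higher in positive SW1990 cells by 1.59 ± 0.17 and *ADAM10*, the protease that sheds ephrins, by 0.50 ± 0.09. *CHN1*, a Rac regulator downstream of EPHA4, was lower there by 1.90 ± 0.32, at 4.29 to 6.57 RPKM in negative and 0.979 to 2.06 RPKM in positive cells. Its call was lost with 0.01 RPKM added in place of 0.1 (adjusted p-value 0.0852). *ABL1*, a kinase, fell there by 0.83 ± 0.08. *MMP14*, a membrane protease that cuts EPHA2, was lower in positive cells of both lines, by 0.70 ± 0.21 in SW1990 and 0.97 ± 0.21 in CFPAC-1. Its SW1990 call was lost without any 1 of the negative SW1990 samples or positive SW1990 replicates 1 or 3, with adjusted p-values up to 0.0849. The *MMP14* call in CFPAC-1 was lost when only the CFPAC-1 groups were fitted (0.0514). Positive CFPAC-1 replicate 3 was the highest of its group, at 253 RPKM beside 116 and 157. In CFPAC-1 the phosphatase gene *PTPN11* rose by 0.56 ± 0.10, the kinase gene *FYN* by 0.96 ± 0.20 and *VAV3*, another exchange factor gene, by 1.82 ± 0.51, while *NGEF*, which encodes the exchange factor ephexin, fell by 0.97 ± 0.15. Positive CFPAC-1 replicate 3 again stood apart for *VAV3*, at 0.412 RPKM beside 2.65 and 2.23. The *VAV3* call was lost without positive replicate 1 or 2 or negative replicate 3. It was also lost when only the CFPAC-1 groups were fitted (adjusted p-value 0.0909) and with 0.01 RPKM added (0.0800).

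For the 3 members that varied most over the 12 samples, the genes with the closest pattern were found among 13266 genes with a mean of at least 1 RPKM, as a description. The measure was Pearson's r of log2 of RPKM plus 0.1 over the 12 samples, which fall into 4 groups and are therefore not 12 independent points. *EPHA1* was followed most closely by *GRHL2*, a Grainyhead-like transcription factor of epithelia, with r = 0.988. Mean RPKM of *GRHL2* was 4.70 in negative SW1990 cells against 33.0 in positive ones, and 13.7 against 28.6 in CFPAC-1. Next were *STEAP4*, a metalloreductase gene, at 0.985 and *MARVELD3*, a tight junction gene, at 0.9825. For *EPHB6* the closest were *LOC100652770* (0.995), *LRRC8B* (0.992) and *GALNT6* (0.992), and for *EFNA1* they were *TMEM59* (0.994), *MANBAL* (0.994) and *HNF4G* (0.994). *HNF4G*, a nuclear receptor gene, averaged 0.490 and 0.622 RPKM in SW1990 and 15.02 and 5.23 RPKM in CFPAC-1, in negative and positive cells.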

How the data were processed

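RNA from 12 sorted samples of SW1990 and CFPAC-1 cells was sequenced after selection of polyadenylated RNA. For library preparation a strand-specific SureSelect kit is named per the labels and a TruSeq kit in the paper. Alignment by the authors was to hg19 (GRCh37), and the deposited RPKM values per gene were made with QuasR. The annotation, whether strand was used and how reads with several matches were treated are not given in the sources used here. Library totals and reads per gene were recovered from the deposited RPKM. An RPKM multiplied by gene length and library size gives back reads, and this product was whole to within 0.01 of a read for each of the 19654 genes with any value above 0. Those reads served for the read numbers quoted and for the voom alternative.

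A mean of at least 0.1 RPKM over the 12 samples was required, which left 16236 of 23346 genes. Using limma 3.58.1 in R 4.3.3, 4 group means were fitted to log2 of RPKM plus 0.1 (eBayes with an intensity trend), and 5 contrasts were tested 2-sided, with p-values adjusted over all genes fitted. The contrasts share samples. TCC, which the authors used, was not run. Tables and figures were made with Python 3.11.15, pandas 2.3.3 and matplotlib 3.10.9, and positions are from GENCODE 44 on GRCh37. The members, the lists of family, signalling and marker genes and the alternatives were chosen with earlier results of these data known. A leukocyte marker of the lists is not reported here. Named beside the members were every other family gene fitted, the 3 highest and the 3 lowest signalling genes per line by log2 fold change among those called without overlap, and the 3 genes most correlated with each of the 3 most variable members. Alternatives were pseudocounts of 1 and 0.01, no filter or a mean of at least 1 RPKM, median centring and quantile normalization. Further ones were only the groups of a contrast, a replicate block, eBayes without a trend and the thresholds of the study. The last were voom on recovered reads and each sample left out in turn. The replicate block was nested in line for changes between positive and negative cells and their difference. For comparisons of the lines it joined samples of the same number.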

Additional observations from a re-analysis of the deposited data

Results flagged for a closer look

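The change between GCTM-5 positive and negative cells differed between SW1990 and CFPAC-1 for 7 members, by limma's test of the difference itself at an adjusted p-value under 0.05. *EPHA1* (2.71), *EFNB1* (1.34), *EPHB3* (1.03), *EFNA1* (0.94), *EPHB6* (0.90) and *EPHA2* (0.69) had higher changes in SW1990, as log2 of RPKM plus 0.1. *EPHA4* had a lower change in SW1990, with a difference of -2.05. For *EPHA1* and *EPHB6* both lines moved the same way and SW1990 moved farther on this scale. With 1 RPKM added, the *EPHB6* difference was 0.25 and was not called (adjusted p-value 0.219). Without negative CFPAC-1 replicate 2 the differences for *EFNA1* and *EFNB1* were not called (0.0509 and 0.0792). That for *EFNB1* was also lost in several other fits. *EPHA4* and *EPHB3* were called in SW1990 and not in CFPAC-1, and *EFNA1* and *EFNB1* in CFPAC-1 and not in SW1990.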

How the results depend on the processing

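Changes under 2-fold do not count under the thresholds of the study, taken here on the log2 of RPKM plus 0.1 with p under 0.01. With them, 2 members were higher in positive SW1990 cells in place of 6. In positive CFPAC-1 cells 0 were higher and 1 lower in place of 2 and 2. *EPHA1* fell just short there, with a ratio of mean RPKM of 2.03. A higher change in SW1990 was seen for 3 members in place of 6. Between negative cells of the lines 1 in place of 2 was higher in SW1990. Between positive cells 2 in place of 4 were higher and 3 in place of 5 lower. Quantile normalization left 1 member higher in positive CFPAC-1 cells, fitting only the groups of the contrast left 1 lower in positive CFPAC-1 cells, and median centring left 1 higher in negative SW1990 than negative CFPAC-1 cells. With each sample left out in turn, 1 to 2 members were higher in positive CFPAC-1 cells. Between negative cells of the lines 1 to 3 were higher in SW1990. The count of 6 higher in positive SW1990 cells moved too, as *EPHB2* lost its call in some of these fits and *EPHB4* gained 1. So did the count of 6 with a higher change in SW1990, where *EFNB1* and *EFNA1* lost calls and *EFNB2* gained them. Changes of sign were seen only where no call was made. *EPHA4* in CFPAC-1 was 0.0017 with 1 RPKM added and -0.17 to 0.18 with samples left out. The difference between the changes of *EPHB4* was 0.0993 with median centring, 0.0310 with quantile normalization, 0.0654 with voom and -0.13 to 0.115 with samples left out. *EFNB2* in CFPAC-1 was -0.0792, -0.0717 and -0.0553 under these 3 settings and -0.0673 to 0.10 with samples left out. With samples left out, *EFNA1* in SW1990 ranged from -0.19 to 0.14, and in CFPAC-1 *EPHA3* from -0.0238 to 0.19, *EPHB1* from -0.32 to 0.0402 and *EFNA2* from -0.27 to 0.27. Median centring gave -0.0172 for *EPHA3* and -0.0245 for *EFNA3* in CFPAC-1, and quantile normalization -0.0113 for *EFNA3*. The cause was not tested. Of 540 member values under settings that left out no sample, 497 kept direction and side of the threshold, as did 564 of 600 with a sample left out. The sources used here do not say whether same-numbered positive and negative samples came from the same sort. Their deviations from the group means correlated at 0.02 to 0.18 within SW1990, where differently numbered samples gave -0.25 to 0.16. Within CFPAC-1 the values were -0.06 to 0.001 and -0.03 to 0.04. With 3 samples per group these cannot settle whether replicate numbers pair the samples, and the main fit treats them as unpaired. With a replicate block *EPHB2* in SW1990, at 0.30, had an adjusted p-value of 0.0649, *EPHB4* was called between negative cells of the lines at 0.27 (0.0452) and *EFNB2* in the difference between the changes at 0.41 (0.0437), while of the other genes named *EPHA7* and *EFNA2* in SW1990 lost their calls (0.0716 and 0.0595). No other call changed under the block among the members in the 5 contrasts and among the other family genes and the named signalling genes between positive and negative cells, and the remaining calls were not run with it. Depth limits the genes with few reads, *EPHA3*, *EPHA6*, *EPHA7* and *EPHB1* among them, and read numbers carry counting error only.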
